A study of Homo sapiens with 6 samples.

Results

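Cells make cholesterol and fatty acids from acetyl-CoA, and the 31 genes described here encode the enzymes and regulators of that synthesis. They were chosen by name as a pathway list, with earlier results of these data known. The list has 4 steps: 8 genes of the early mevalonate pathway, 11 of late sterol synthesis, 7 of fatty acid synthesis and 5 regulators. For 28 of the 31 genes the platform annotation holds at least 1 probe set that carries that gene's symbol alone, 62 probe sets in all out of 54613. FDFT1, CYP51A1 and FADS1 have none there and were not analysed here. A filter on dim probe sets kept 60 of the 62 and left all 28 genes measured, among 12810 measured genes in the whole experiment.

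The experiment used K562 cells, a widely used human line of chronic myelogenous leukaemia origin that carries the BCR-ABL1 fusion kinase. In the CA group, 3 wells were incubated for 3 h with 25 nM CA, which the series title spells out as cortistatin A. This steroidal alkaloid blocks CDK8 and CDK19, the kinases that dock on Mediator. In the DMSO group, 3 wells received the solvent for the same 3 h. All wells held the same unmodified line, and the question was which transcripts change after short exposure to the compound. Each well gave 1 Affymetrix Human U133 Plus 2.0 array, and values are log2 RMA signals, a scale on which 1 unit is a 2-fold difference. The labels do not say whether the triplicate wells came from separate cultures, so the p values measure the spread between these wells, which may be technical.

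In the early mevalonate pathway, acetyl-CoA is built into isoprenoid units and then into farnesyl pyrophosphate. Late sterol enzymes join farnesyl units to squalene, close it to lanosterol, strip methyl groups from the ring and rearrange double bonds until cholesterol remains. Most of these genes are targets of the SREBP transcription factors, which are held in the endoplasmic reticulum by SCAP and INSIG proteins when sterols are plentiful and are released to the nucleus when sterols run low. SREBPs bind sterol regulatory elements and act together with the CCAAT-binding factor NF-Y and with Sp1 at GC boxes. The Mediator complex is a known partner of SREBPs through its subunit MED15, and CDK8 is known from work in flies and mammalian cells to phosphorylate nuclear SREBP.

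Promoter windows of a few members show the letters that these factors bind, with RefSeq sequences of build GRCh38.p14, from 250 bases before the gene's start up to the start. MSMO1 is shown because it was the member whose transcript rose, NSDHL because it encodes an enzyme that acts beside it, MVK as an early gene with many CCAAT boxes, and SREBF2 as the member with an SRE-like match. Capitals mark CCAAT on either strand (ATTGG on the printed one) and, in SREBF2, the SRE-like TCACCCCAC.
MSMO1 (chr4:165327419-165327668, plus strand): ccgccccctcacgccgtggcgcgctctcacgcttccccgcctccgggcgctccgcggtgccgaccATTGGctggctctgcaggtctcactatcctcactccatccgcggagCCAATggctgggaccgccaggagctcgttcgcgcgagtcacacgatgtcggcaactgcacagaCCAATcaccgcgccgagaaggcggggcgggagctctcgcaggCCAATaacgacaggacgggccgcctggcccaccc
NSDHL (chrX:152830813-152831062, plus strand): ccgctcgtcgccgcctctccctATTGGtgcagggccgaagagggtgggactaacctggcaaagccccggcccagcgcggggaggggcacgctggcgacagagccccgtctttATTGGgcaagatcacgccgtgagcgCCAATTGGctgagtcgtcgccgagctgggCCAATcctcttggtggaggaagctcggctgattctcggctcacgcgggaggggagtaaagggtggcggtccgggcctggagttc
MVK (chr12:109573544-109573793, plus strand): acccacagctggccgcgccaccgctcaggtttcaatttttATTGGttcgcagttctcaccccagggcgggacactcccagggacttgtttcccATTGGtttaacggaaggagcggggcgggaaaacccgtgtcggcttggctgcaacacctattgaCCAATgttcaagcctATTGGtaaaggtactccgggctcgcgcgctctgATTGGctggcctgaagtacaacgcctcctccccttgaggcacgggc
SREBF2 (chr22:41832855-41833104, plus strand): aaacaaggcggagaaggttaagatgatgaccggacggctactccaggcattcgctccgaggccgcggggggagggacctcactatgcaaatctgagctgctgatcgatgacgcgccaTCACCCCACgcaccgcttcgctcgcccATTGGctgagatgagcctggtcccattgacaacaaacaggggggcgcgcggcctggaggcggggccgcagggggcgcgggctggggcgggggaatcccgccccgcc

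The MSMO1 window holds 4 CCAAT boxes, which begin 185, 139, 76 and 34 bases before the start. NSDHL and MVK hold 5 each, and 2 of the NSDHL boxes, on opposite strands, overlap by 2 bases. CCAAT was found in at least 1 window of 20 of the 27 members that the RefSeq table covers (74.1%), against 37.0% of all 27305 genes there. Those 27 leave out ACAT2, FDFT1, SQLE and FASN and include CYP51A1 and FADS1, which were not measured. Windows with 3 or more CCAAT boxes numbered 7 of 38 for the members (18.4%) and 2.93% of all 35116 windows. The GC box GGGCGG was in a window of 26 of the 27 members, against 46.2% of all genes. The E-box CACGTG was in windows of 3 members (INSIG1, SCAP and SC5D), or 11.1%, against 7.73% of all genes. For the SRE-like TCACNCCAC 1 member (3.70%), SREBF2, had a match, 133 bases before the start, against 1.09% of all genes. All 4 motifs were searched on both strands, each only in the form given, and these are matches of letters only. Sterol regulatory elements spelled otherwise were not searched for.

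Before the members are described, a few facts on the arrays bear on every value. Over all probe sets the arrays correlated with each other at 0.997, to 3 digits, with medians from 3.47 to 3.52. On principal component 1 (26.2% of the variance) CA array 1 was at 1.41, the other CA arrays at -11.6 and -13.3, and the DMSO arrays between 5.89 and 9.98. CA array 1 was at -19.0 on principal component 2 (24.4% of the variance), with the other CA arrays at 0.338 and 4.99 and the DMSO arrays between 0.962 and 7.20. The added polyadenylated control RNAs dap, lys, phe and thr have more than 1 probe set each, so these are not independent readings. All 8 probe sets for their 3' ends were lower on CA arrays, by -0.29 to -0.14, with overlap between groups for 1 of dap and 1 of thr. Of 8 for their 5' ends, 4 were lower, those of lys and phe, and the range was -0.23 to 0.12. Of 12 K562 erythroid and myeloid markers 9 were measured, the embryonic globin gene HBE1 among them at 13.27 on CA arrays and 13.27 on DMSO arrays. GFI1B, a transcription factor of erythroid cells, was the 1 of the 9 that was called (0.57, limma adjusted p = 0.0437). For LMO2 (0.36), NFE2 (0.23), TAL1 (0.22) and TFRC (0.12) all CA arrays also lay above all DMSO arrays, which held for 6.14% of all measured genes. With the limma variance prior that follows the mean signal, the adjusted p of these genes lay between 8.6e-05 and 0.0273. That prior called 1.23% of all measured genes. The arrays of HBE1, HBZ (-0.01), GATA1 (0.05) and KLF1 (-0.06) overlapped between groups. Of 13 markers of lymphoid, liver, fat, epithelial and connective tissue cells 8 were measured, between 3.65 and 10.45 in CA and between 3.66 and 10.47 in DMSO. EPCAM and CD3D were at 10.46 and 9.07 over all arrays, and the probe sets of ALB, APOA1, ADIPOQ and MS4A1 were below the filter. None of the 8 was called, with limma adjusted p between 0.504 and 0.977, and the part of either marker list in the results was not tested.

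Among the 28 measured members, the transcript of MSMO1 rose and no other member passed the test. MSMO1 encodes the methylsterol monooxygenase that oxidises the methyl groups at position 4 of the sterol ring. Its 1 probe set read 10.15, 10.04 and 10.04 on the CA arrays, against 9.49, 9.40 and 9.47 on the DMSO arrays. The CA arrays thus all lay above the DMSO arrays, with a gap several times the spread within either group. The means were 10.08 ± 0.06 in CA and 9.45 ± 0.05 in DMSO (SD, n = 3 each), a log2 change of 0.62 or 1.54-fold, with a 95% confidence interval of 0.50 to 0.75. In limma, with Benjamini-Hochberg adjustment over all 27307 probe sets, the adjusted p was 0.0235, and "called" below means an adjusted p under 0.05. MSMO1 ranked 3 by size among all fitted rises of the 12810 measured genes. The call depended on all 6 arrays being present: without any 1 of them the change was 0.59 to 0.64 and the adjusted p 0.0916 to 0.198. It was also lost with no filter on dim probe sets (adjusted p = 0.101) and when probe sets whose suffix marks them as shared were dropped (adjusted p = 0.0518), at the same change of 0.62.

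That made 1 of 28 members called, upward, where 0.0859% of all measured genes were called in either direction and 0.0625% upward. Since the members were chosen with earlier results of these data known, the count describes this list and does not test the pathway. At an unadjusted p under 0.05 there were 2 of 28, MSMO1 and SQLE, both higher in CA, where 8.61% of all measured genes reached it and 3.59% did so with higher values in CA. The median log2 change was 0.03 over the 28 members and 0.02 over the 27 without MSMO1, against -0.01 over all measured genes. Fitted values were above 0 for 19 members and below 0 for 9, while 43.5% of all measured genes were above 0. All 3 CA arrays lay above all DMSO arrays for 3 members, MSMO1, SQLE and HSD17B7, and below them for 1, ELOVL6. Non-overlap in either direction was seen for 16.1% of all measured genes, and CA above DMSO for 6.14%. The plot of each member's change, on its brightest probe set, shows MSMO1 apart from the rest. There the upper bounds of the 27 other intervals all lay below the MSMO1 lower bound of 0.50. The highest of these bounds was 0.46, for MVD.

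**Figure D1:**
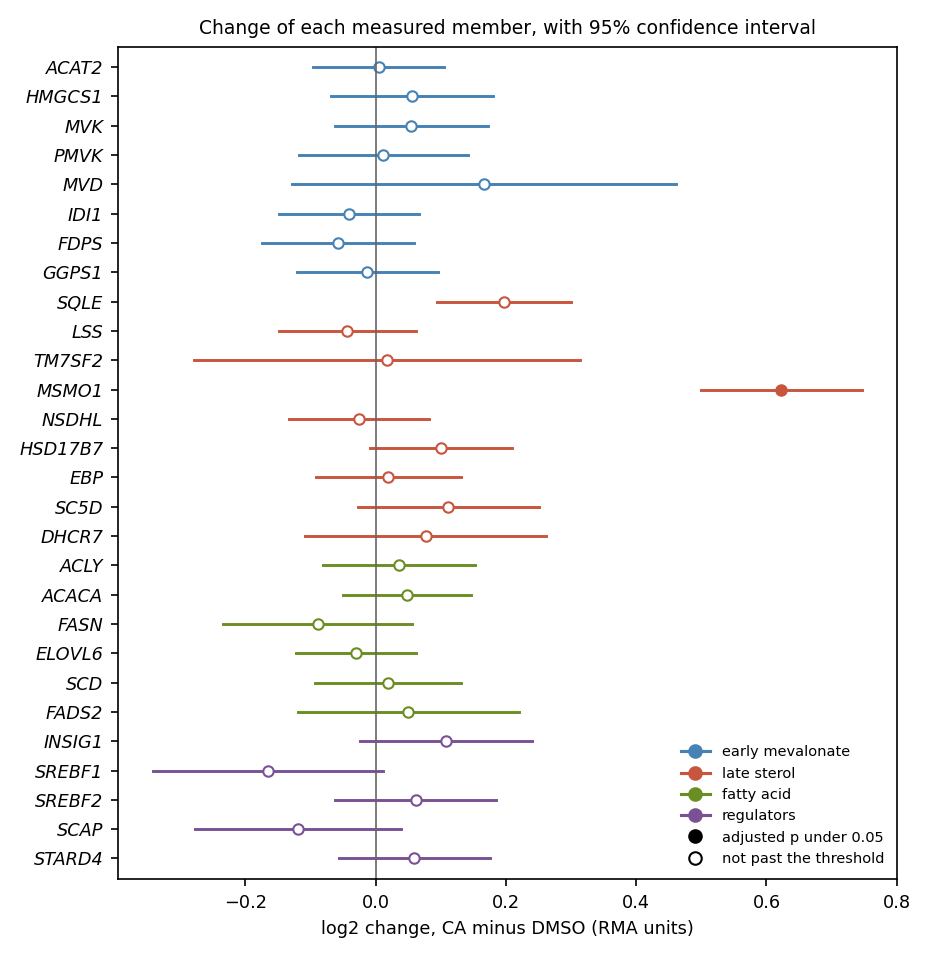
Log2 change, CA minus DMSO, of the 28 measured members on the horizontal axis, in pathway order from the top, with 95% confidence intervals from limma (3 arrays in each group). The filled point, MSMO1 at 0.62, is past the threshold of an adjusted p under 0.05, and the open points lie between -0.17 and 0.20.

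Genes on either side of MSMO1 in the late sterol step did not pass the test. Of 11 genes in this step 9 were measured, and apart from MSMO1 their median change was 0.05, with 6 fitted values above 0 and 2 below. SQLE encodes squalene epoxidase, which puts the first oxygen on squalene and is a slow step of the pathway. Its brightest probe set read 10.64, 10.59 and 10.67 in CA, against 10.43, 10.42 and 10.45 in DMSO. The groups did not overlap, and the log2 change was 0.20 (SE 0.04, adjusted p = 0.272 by limma), or 1.15-fold. Of its 4 probe sets all had a fitted value above 0, at 0.20, 0.12, 0.41 and 0.18 from the brightest to the dimmest, and 3 showed no overlap. The one at 0.41 read 7.56, 7.50 and 7.45 in CA, against 6.99, 7.11 and 7.19 in DMSO (adjusted p = 0.143 by limma). With a variance prior that follows the mean signal, which calls 1.23% of all measured genes and 0.734% upward, SQLE was called at an adjusted p of 0.00233, beside MSMO1 at 8.7e-07. Whether the MSMO1 and SQLE changes differ was not tested. The MSMO1 interval, 0.50 to 0.75, lies apart from that of the brightest SQLE probe set, 0.09 to 0.30. It overlaps with the interval of the SQLE probe set at 0.41, which was 0.25 to 0.56.

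LSS, the cyclase that closes the sterol ring, read 7.93, 7.88 and 7.90 in CA and 8.00, 7.94 and 7.91 in DMSO, a change of -0.04 with an interval of -0.15 to 0.06. TM7SF2, a sterol reductase that acts just before MSMO1, was uneven, at 5.72, 5.68 and 6.13 in CA, against 5.91, 5.74 and 5.83 in DMSO. Its change of 0.02 had the widest interval of the step, -0.28 to 0.31. NSDHL and HSD17B7 work with MSMO1 in the removal of the same methyl groups, as a dehydrogenase and a ketoreductase. For NSDHL the signals were 8.14, 8.05 and 8.11 in CA and 8.15, 8.13 and 8.10 in DMSO, which overlap, with a difference of -0.03 and an interval of -0.13 to 0.08. HSD17B7 read 7.70, 7.66 and 7.75 in CA, against 7.60, 7.64 and 7.57 in DMSO, with no overlap and a change of 0.10 (interval -0.01 to 0.21, adjusted p = 0.562 by limma). The HSD17B7 probe set is marked by its suffix as able to bind related transcripts.

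EBP, the isomerase that moves a ring double bond, averaged 10.03 ± 0.02 in CA and 10.01 ± 0.06 in DMSO (SD, n = 3 each) on its brightest probe set, a difference of 0.02. Its other 3 probe sets had fitted values of -0.04, -0.07 and -0.20, the last on a probe set with a mean signal of 4.58. SC5D, the lathosterol oxidase, had 8.00, 7.92 and 7.97 in CA, against 7.95, 7.77 and 7.84 in DMSO, a change of 0.11 with an interval of -0.03 to 0.25. DHCR7, the last reductase before cholesterol, read 8.93, 8.68 and 8.67 in CA and 8.72, 8.66 and 8.68 in DMSO. Its difference of 0.08 rested on CA array 1, and without that array it was -0.0070. The dimmer DHCR7 probe set also had 0.08, with 8.03, 8.04 and 8.05 in CA, against 8.00, 7.92 and 7.97 in DMSO, and no overlap. On their brightest probe sets, all 8 late sterol genes other than MSMO1 had upper interval bounds at or below 0.31.

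Setting MSMO1 against the mean of these 8 genes on each array puts the same fact on 1 scale. MSMO1 lay above that mean by 1.76, 1.73 and 1.63 log2 units in CA, against 1.13, 1.12 and 1.17 in DMSO. The gap was 1.71 ± 0.07 in CA and 1.14 ± 0.03 in DMSO (SD, n = 3 each), a difference of 0.57, which is the 0.62 of MSMO1 less the 0.06 by which the mean of the 8 neighbours was itself higher in CA. Without any 1 array the difference was 0.54 to 0.60. It is a difference of change only, since signals of different probe sets cannot be compared as levels.

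**Figure D2:**
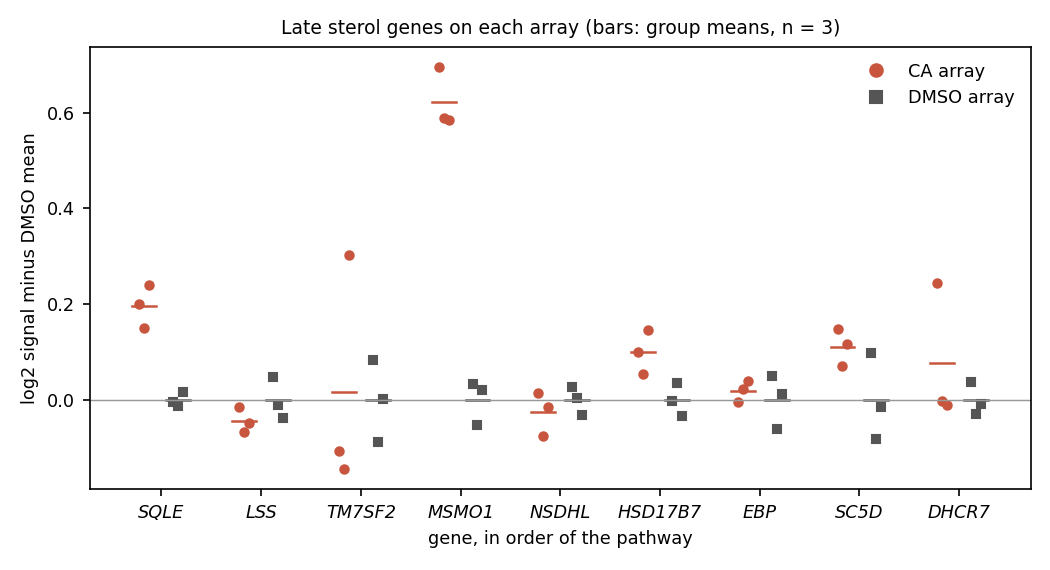
Log2 signal of the 9 measured late sterol genes on each of the 6 arrays, minus the gene's DMSO mean (vertical axis), with genes in pathway order and short bars at the group means (n = 3). The CA arrays of MSMO1 average 0.62 above its DMSO arrays, and those of LSS, NSDHL and EBP overlap with theirs.

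In the early mevalonate step 0 of 8 genes were called (adjusted p between 0.743 and 0.984 by limma), 0 had an unadjusted p under 0.05, and the median change was 0.01. HMGCS1, which makes HMG-CoA, read 8.81, 8.71 and 8.69 in CA, against 8.64, 8.67 and 8.74 in DMSO on its brighter probe set, a change of 0.06. The dimmer HMGCS1 probe set behaved otherwise, at 6.81, 6.83 and 6.72 in CA, against 6.42, 6.56 and 6.61 in DMSO. There the groups did not overlap and the change was 0.26 (SE 0.07, adjusted p = 0.328 by limma). MVK, mevalonate kinase, had a difference of 0.05 and PMVK, phosphomevalonate kinase, one of 0.01. MVD, the decarboxylase that follows, had a difference of 0.17 with an uneven CA group of 5.08, 4.57 and 4.85, against 4.65, 4.70 and 4.66 in DMSO. The MVD value was 0.04 without CA array 1 and 0.30 without CA array 2.

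IDI1, the isomerase of the isoprenoid units, read 10.25, 10.26 and 10.27 in CA and 10.32, 10.24 and 10.34 in DMSO, a change of -0.04. This IDI1 probe set is marked by its suffix as able to bind related transcripts. FDPS, which makes farnesyl pyrophosphate, had -0.06 and GGPS1, which makes geranylgeranyl pyrophosphate, -0.01. ACAT2, a thiolase that joins acetyl-CoA units, had a difference of 0.0045, with 9.67 ± 0.03 in CA and 9.66 ± 0.03 in DMSO (SD, n = 3 each). On their brightest probe sets, the interval bounds of these 4 genes all lay between -0.17 and 0.10.

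Fatty acid synthesis genes also gave 0 calls, of 6 measured out of 7, with adjusted p between 0.722 and 0.935 by limma and a median change of 0.03. ACLY, which supplies cytosolic acetyl-CoA from citrate, had a difference of 0.04, and ACACA, the carboxylase that commits it to fatty acids, 0.05. FASN, the fatty acid synthase, read 7.36, 7.16 and 7.28 in CA, against 7.33, 7.38 and 7.35 in DMSO. Its change of -0.09 (interval -0.23 to 0.06) was the most negative of the step, and without any 1 array it was -0.14 to -0.03, the last without CA array 2. ELOVL6, an elongase, had CA arrays at 9.11, 9.13 and 9.12 and DMSO arrays at 9.14, 9.17 and 9.14. They did not overlap, but the change was -0.03 and its other 2 probe sets had fitted values of 0.06 and 0.13.

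SCD, the desaturase that makes oleate, read on its brightest probe set 10.81, 10.74 and 10.69 in CA and 10.74, 10.74 and 10.70 in DMSO. Its 4 probe sets had fitted values of 0.02, 0.09, 0.08 and 0.20 from the brightest to the dimmest, and the arrays of the second and of the last (adjusted p = 0.319 by limma) did not overlap between groups. FADS2, a desaturase of polyunsaturated fatty acids, had 0.05 with an interval of -0.12 to 0.22.

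The 5 regulators were all measured, and 0 were called (adjusted p between 0.559 and 0.779 by limma). INSIG1, an SREBP target that retains SCAP in the endoplasmic reticulum, read 11.34, 11.28 and 11.18 in CA, against 11.18, 11.18 and 11.11 in DMSO. Its change was 0.11 (interval -0.02 to 0.24), or 0.07 to 0.15 without any 1 array, and all 3 of its probe sets had a fitted value above 0, from 0.07 to 0.11. SREBF1, which encodes the SREBP of fatty acid genes, read 6.94, 6.71 and 6.69 in CA and 6.91, 6.98 and 6.96 in DMSO. On CA arrays 2 and 3 it lay below all DMSO arrays and on CA array 1 among them. The change was thus -0.17 with all arrays and -0.24 without CA array 1 (adjusted p = 0.559 and 0.266 by limma). The dimmer SREBF1 probe set, with a mean signal of 4.61, had 0.02, with overlap between groups.

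SREBF2, which encodes the SREBP of sterol genes, had 5.80, 5.78 and 5.86 in CA, against 5.78, 5.68 and 5.79 in DMSO, a change of 0.06. Its other 2 probe sets had -0.02 and -0.08. SCAP, the escort protein of the SREBPs, had a difference of -0.12 (interval -0.28 to 0.04), with 8.19, 8.03 and 8.24 in CA and 8.22, 8.27 and 8.32 in DMSO. Without CA array 2 it was -0.06, and without any other array -0.16 to -0.10. STARD4, a sterol carrier protein, had 7.96 ± 0.04 in CA and 7.90 ± 0.05 in DMSO (SD, n = 3 each), a change of 0.06.

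Counting every probe set in place of 1 per gene, 1 of 60 was called, where 0.0952% of all tested probe sets were. An unadjusted p under 0.05 was reached by 6 of 60, where 9.31% of all did. These were the MSMO1 probe set, 2 of SQLE and 1 each of HMGCS1, SCD and IDI1, and the IDI1 one, at -0.12, was the only one below 0. CA and DMSO arrays did not overlap for 12 of the 60, 10 higher and 2 lower, where 15.6% of all tested probe sets showed no overlap and 7.09% had CA above DMSO. With the variance prior that follows the mean, 3 of the 60 were called, where 1.04% of all were. Of 17 genes with several tested probe sets, 9 had all fitted values on 1 side of 0, 6 of them above it and 3 below. The plot of all member probe sets shows that MSMO1 and the 0.41 of SQLE stand above the other member probe sets.

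**Figure D3:**
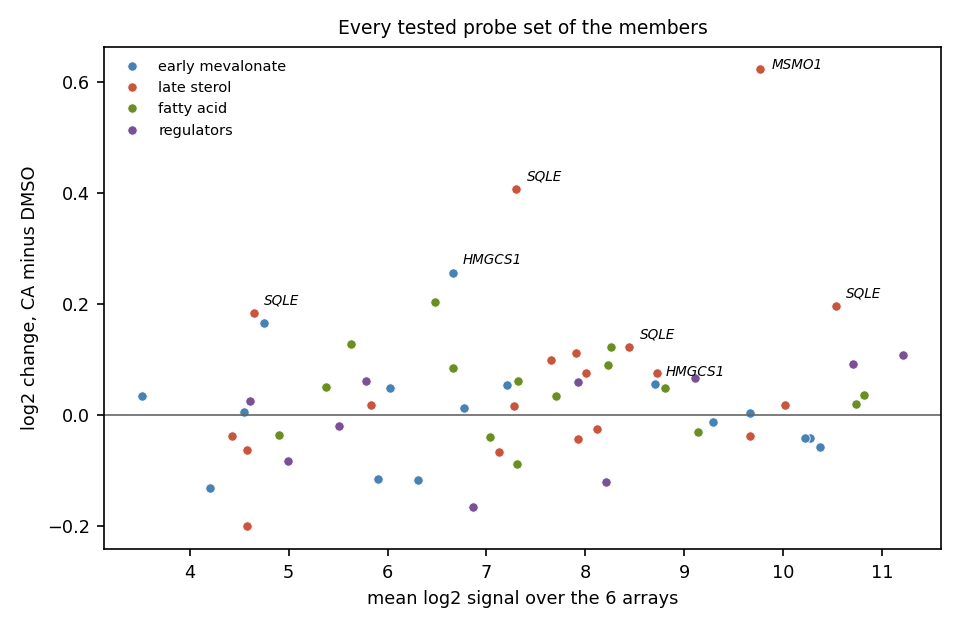
Each point is 1 of the 60 tested probe sets of the members, with its mean log2 signal over the 6 arrays on the horizontal axis and its log2 change, CA minus DMSO, on the vertical axis, coloured by pathway step. MSMO1 is at 0.62, the probe sets of SQLE are between 0.12 and 0.41, and those of HMGCS1 are at 0.06 and 0.26.

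A second list held 66 further genes of the pathway, in 6 groups: other enzymes, SREBP processing, SREBP cofactors, sterol uptake and transport, the sterol-sensing LXR receptors with their targets, and lipogenic genes outside synthesis. Of these 50 were measured, 0 were called by limma, and 7 had an unadjusted p under 0.05, 5 with fitted values above 0 and 2 below. Over all measured genes 0.0859% were called, 8.61% had an unadjusted p under 0.05 and 3.59% had it with higher values in CA. The median change of the 50 was -0.01, against -0.01 over all measured genes, and the range was -0.25 to 0.31. MYLIP, a ubiquitin ligase that degrades the LDL receptor and is an LXR target, had the smallest p. It read 8.54, 8.54 and 8.53 in CA, against 8.19, 8.23 and 8.25 in DMSO, with no overlap, a change of 0.31 (SE 0.04) and an adjusted p of 0.0819. All 6 of its probe sets had fitted values above 0. Of the other LXR genes, RXRA had -0.25, NR1H3 -0.11 and LPCAT3 0.02 on their brightest probe sets, each with overlap between CA and DMSO arrays. RXRA and LPCAT3 each had 2 tested probe sets, 1 of them with a fitted value above 0. The dimmer one of LPCAT3 had an unadjusted p under 0.05 by limma. ABCA1 and ABCG1 were below the filter, and NR1H2 had no single-symbol probe set. TMEM97, a sterol-regulated endoplasmic reticulum protein, read 10.01, 10.04 and 10.01 in CA, against 9.83, 9.86 and 9.87 in DMSO. The change was 0.17 (SE 0.04, adjusted p = 0.302), and all 4 of its probe sets were above 0. With the limma variance prior that follows the mean, MYLIP (adjusted p = 0.00055) and TMEM97 (0.00757) were the 2 called genes of the 50, both upward. Over all measured genes that prior called 1.23%, and 0.734% upward.

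Of 13 measured other synthesis enzymes, ACSL4, an acyl-CoA synthetase, had the smallest p at 0.24 (adjusted p = 0.496 by limma), with CA arrays at 6.82, 6.57 and 6.46 and DMSO arrays at 6.39, 6.38 and 6.37. ELOVL5, the brightest of them, had 0.08. On their brightest probe sets, 0 of 13 measured genes of SREBP processing and turnover had an unadjusted p under 0.05 by limma. There SPRING1, which helps activate SREBPs, had -0.08, CCNC, the cyclin of CDK8, 0.00031, and the kinase genes CDK8 and CDK19 -0.07 and -0.09. Counting every tested probe set, CDK8 had 1 of 3 under that p, CDK19 2 of 3, ERLIN1 1 of 2 and ERLIN2 1 of 3. Over all tested probe sets it was 9.31%. For CDK8 and for CDK19, 1 of the 3 had a fitted value above 0. Of the 8 SREBP cofactor genes PPARGC1B had 0.16, CREBBP -0.18, SP1 -0.04 and MED15 -0.11 (adjusted p between 0.35 and 0.867 by limma). The genes of NF-Y had -0.10 (NFYA), 0.03 (NFYB) and -0.01 (NFYC). On their brightest probe sets, the arrays of PPARGC1B and NFYA did not overlap between groups. Fitted values above 0 were found for 4 of 4 tested probe sets of PPARGC1B, 2 of 3 of CREBBP, 0 of 5 of NFYA, 1 of 4 of NFYB and 2 of 5 of NFYC. In the 5 measured lipogenic genes outside synthesis, LPIN1, a phosphatidate phosphatase, had 0.18, AACS, which activates acetoacetate, -0.17, and TRIB3 0.06, with 0 called. The plot of these lists shows the 6 groups of genes spread around 0.

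**Figure D4:**
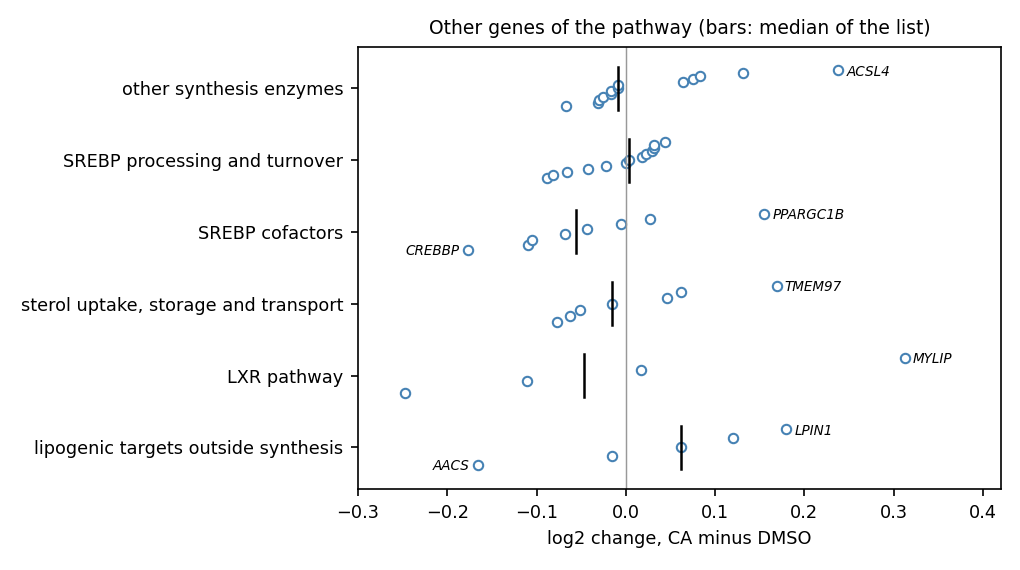
Log2 change, CA minus DMSO, of the 50 measured genes of the second list on the horizontal axis, 1 row for each of its 6 groups, with a bar at the group median. Names are given at an unadjusted p under 0.05. MYLIP at 0.31 lies farthest right, and none of the genes was past the threshold of an adjusted p under 0.05.

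MSMO1 lies at chr4:165327669-165343164 in GRCh38.p14, and the genes beside it on the chromosome were looked at as well. KLHL2, which ends just before the start of MSMO1, had a difference of 0.02 (adjusted p = 0.956 by limma). GK3, which lies within the span of KLHL2, had one of 0.13 (adjusted p = 0.759 by limma). Neither gene had CA and DMSO arrays apart. The GK3 probe set, with a mean signal of 4.27, is marked by its suffix as able to bind related transcripts. CPE and TLL1, on the other side, were below the filter on dim probe sets.

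Since RMA sets all arrays to a common distribution, every change above is relative to the other transcripts. Scaling to the 3' probe sets of the added control RNAs would add 0.20 to every change and put the median of all measured genes at 0.18, against -0.01 without it. Of the 28 members 28 would then be above 0, with MSMO1 at 0.82 and a median of 0.22, and 6 would be called by limma. In that scaling 11.5% of all measured genes are called and 3675 of 3691 called probe sets (99.6%) are higher in CA, against 14 of 26 (53.8%) without it. Scaling to the 5' probe sets would add 0.04. The labels do not say how the controls were added, and the distance between MSMO1 and the other members does not depend on the scaling.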

How the data were processed

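Total RNA (100 ng) from K562 wells plated at 500000 to 800000 cells per mL was labelled with a 3' IVT kit for Human U133 Plus 2.0 arrays (Affymetrix), per the labels' protocols. RNA came from an RNeasy kit or TRIzol, not told apart by well. The authors deposited 1 table of log2 values made with RMA in the affy package, per the submitters' processing notes; versions are not given in the sources used here. RMA gives all arrays a common distribution, so a shift of all transcripts together is not seen.

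From that table, 62 control probe sets were set aside and probe sets with a mean of at least 3.49, the median of means, were tested (27307). Symbols came from the platform annotation, single-symbol probe sets only, and the brightest tested probe set stood for a gene. CA was compared with DMSO with limma 3.58.1 under R 4.3.3 (lmFit, eBayes; 2-sided), over all probe sets at an adjusted p under 0.05. The tests were tested on simulated data. Signal brightness and the number of arrays limit the precision: the median SE of a log2 change was 0.07. Named were all members, called genes, and in each further list the genes with the smallest p and highest signal. Ones chosen after their values were seen are CDK8, CDK19, ERLIN1, ERLIN2, MED15, CREBBP, NFYA, NFYB, NFYC and LPIN1. So are the LXR genes other than MYLIP and the K562 markers other than HBE1 and GFI1B. Members and lists were chosen with earlier results of these data known. Alternatives covered filters, variance priors, scalings, probe sets, array weights, a replicate block and leaving out arrays.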

Additional observations from a re-analysis of the deposited data

How the results depend on the processing

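MSMO1 was above 0 under all 18 alternatives, and its call was lost with no filter (log2 change 0.62, adjusted p = 0.101), without probe sets marked as shared (adjusted p = 0.0518), and on leaving out any 1 array (0.59 to 0.64, adjusted p 0.0916 to 0.198). Replicate numbers did not pair the samples (correlations -0.070, 0.010 and 0.061), and with a replicate block 0 probe sets were called in limma (2485 at an unadjusted p under 0.05), with MSMO1 at 0.62 (adjusted p = 0.348) and 0 members called. Against 26 probe sets called, there were 3691 with 3' control scaling, 162 with a filter at the 75th percentile, 5 with no filter, 17 with a robust variance prior, 285 with a prior following the mean, 1 without shared probe sets and 2 to 5 without 1 array. Averaging a gene's probe sets gives genes, so it has no such count. Against 1 member called, 6 were with 3' scaling, 2 with the prior following the mean, and 0 with no filter, without shared probe sets or without 1 array. Against 0 of the other pathway genes, 11 were with 3' scaling, 1 (MYLIP) with the stricter filter and 2 with the prior following the mean. MSMO1's lead over its late sterol neighbours changed by 0.63 against their median, and by 0.54 to 0.60 without 1 array.

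Of 473 values of the 27 other members under the alternatives, 33 had the opposite sign and 6 passed the threshold. With 3' scaling IDI1 had 0.15, FDPS 0.14, GGPS1 0.18, LSS 0.15, NSDHL 0.17, FASN 0.11, ELOVL6 0.17, SREBF1 0.031 and SCAP 0.076. With 5' scaling IDI1 had 0.0013, GGPS1 0.030, NSDHL 0.017 and ELOVL6 0.013. PMVK had -0.0024 with array weights and -0.0029 with median centring, and ACAT2 -0.010 with centring. With the mean of a gene's probe sets MVK had -0.0050, EBP -0.071, ELOVL6 0.053 and SREBF2 -0.013. Without shared probe sets IDI1 had 0.034 and EBP -0.038. Leaving out 1 array gave ACAT2 -0.011 to 0.021, DHCR7 -0.0070 to 0.12, SCD -0.011 to 0.046, TM7SF2 -0.12 to 0.10, FADS2 -0.0070 to 0.11, GGPS1 -0.041 to 0.012, EBP -0.012 to 0.044 and PMVK -0.037 to 0.041. The cause was not tested. With 3 arrays a group, permuting the labels cannot give a p below 0.1.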
